A study of Gallus gallus with 9 samples.

Results

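Expression of 8 genes of mesenchyme and of the hyaluronan-rich matrix found in heart valve primordia was followed in chick explants cultured with or without BMP4, a signalling protein of the TGF-beta superfamily. The genes are the transcription factors SOX9, PRRX1 and TWIST1, the cell surface molecules CD44 and GPC3, and the matrix genes HAS2, VCAN and HAPLN1. They were found by gene symbol in the array annotation, which gave 14 probe sets for 8 of the 13009 named genes on the array, and a gene is read from its probe set with the highest mean signal. All 8 passed the filter on dim probe sets. They were chosen by the signals of these same arrays, with their BMP4 differences already known, so every BMP4 difference of the 8 below is a description and not a test.

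The explants were labelled as splanchnic mesoderm of the chick anterior heart field, which supplies heart muscle progenitors. They were grown on a collagen drop in medium with serum and chick embryo extract. Untreated explants were taken at 0, 3, 12 and 24 h, and explants given human recombinant BMP4 at 200 ng/ml at 3, 12 and 24 h. The serum and the embryo extract were present in both arms. RNA of each sample went on 1 Affymetrix array. The 12 h samples are duplicated (A and B) in each arm, the other 5 groups hold 1 array each, and the labels do not say whether A and B are separate explants.

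Values are signal intensity, and array medians lay between 67.17 and 67.67. The level that a probe set had to exceed on 2 arrays to be tested, the 40th percentile of an array, was 46.35 to 46.9. Log2 differences are of signal plus 27.79, and errors after them are standard errors of the fit. The untreated 0 h and BMP4 24 h arrays stood farthest apart, with r = 0.939 across probe sets. Beta-actin control probe sets at the 3′ and 5′ ends of the transcript gauge RNA integrity. Their ratio, 3′ over 5′, was higher with BMP4 at each time, at 4.96 against 4.51 at 3 h, 5.5 and 4.26 against 5.44 and 3.8 at 12 h, and 5.67 against 3.72 at 24 h. The arms overlapped at 12 h. The same ratio for GAPDH was 1.94 with against 2.33 without BMP4 at 3 h, 1.94 and 1.56 against 1.64 and 1.58 at 12 h, and 1.74 against 1.42 at 24 h, and so had no common direction. The part of RNA integrity in the BMP4 differences was not tested. Of 12 markers of the labelled tissue, 11 passed the filter. ISL1 (5402 to 11120) and NKX2-5 (4049 to 9211) were far above the filter level on all 9 arrays, and HAND2, GATA6 and TCF21 also exceeded it on all. TBX1 (36.84 to 224.41) and FOXC2 (43.57 to 1117.23) exceeded it on 8 arrays and GATA4 (35.65 to 73.35) on 7. FGF10 (13.29 to 187.63) and LHX2 (24.77 to 88.83) did so on 6, and MEF2C (9.56 to 117.22) on 5. FOXF1, a regulator of splanchnic mesoderm, exceeded it on 0 of 9 arrays (7.43 to 35.8). Epithelial and endodermal markers were bright as well, with EPCAM (21048 to 30824), KRT7 (10716 to 22039) and CDH1 (4196 to 11127) above it on all 9 arrays. Of the same list, SOX2 exceeded it on 6 arrays, NKX2-1 on 4 and SHH on 3. In which cells of the explants the 8 genes were expressed was not tested.

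SOX9 is an HMG-box transcription factor required for cartilage and for the mesenchyme of heart valves, and PRRX1 and TWIST1 are a homeobox and a basic helix-loop-helix factor of mesenchyme. In the embryonic heart, endocardial cells leave their layer and invade a jelly of hyaluronan to form cushions, the forerunners of valves, and BMP from the adjoining muscle takes part in this. HAS2 makes hyaluronan, versican (VCAN) binds it, link protein (HAPLN1) locks that bond, and CD44 is a cell surface receptor for it. GPC3 is a glypican, a heparan sulfate proteoglycan held on the membrane, where glypicans modulate growth factor signals.

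In their brightest probe sets, SOX9, PRRX1, CD44 and GPC3 had higher signals with BMP4 at each time. For CD44 the other probe sets did not all show this at 3 h. For SOX9 the log2 difference at 3 h was little more than its standard error (0.52 ± 0.51). HAPLN1 stood apart chiefly at 24 h, and HAS2, VCAN and TWIST1 showed no difference beyond the spread of the arrays. Over 3, 12 and 24 h the log2 differences were 1.89 ± 0.29 for CD44, 1.71 ± 0.36 for SOX9, 1.54 ± 0.14 for GPC3, 1.02 ± 0.10 for PRRX1 and 0.59 ± 0.18 for HAPLN1. They were −0.14 ± 0.19 for TWIST1, −0.15 ± 0.16 for VCAN and −0.29 ± 0.20 for HAS2. The 4 probe sets of CD44 ranged from 0.28 to 1.89. Of the 8 genes, 4 were higher at an adjusted p under 0.05 in limma's fit, against 1.15% of the 11690 named genes tested, and 0 were lower, against 0.71% (1.86% in either direction). The counts higher at single times were 0 at 3 h (0.0257% of named genes), 4 at 12 h (0.693%) and 2 at 24 h (0.436%, with 0.778% lower and 1.21% in either direction). These counts restate how the genes were chosen, and nothing is read from them. The median of the 8 was 0.80 and that of all named genes −0.01. In explants, fewer cells of a type and less RNA per cell cannot be told apart.

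**Figure D1:**
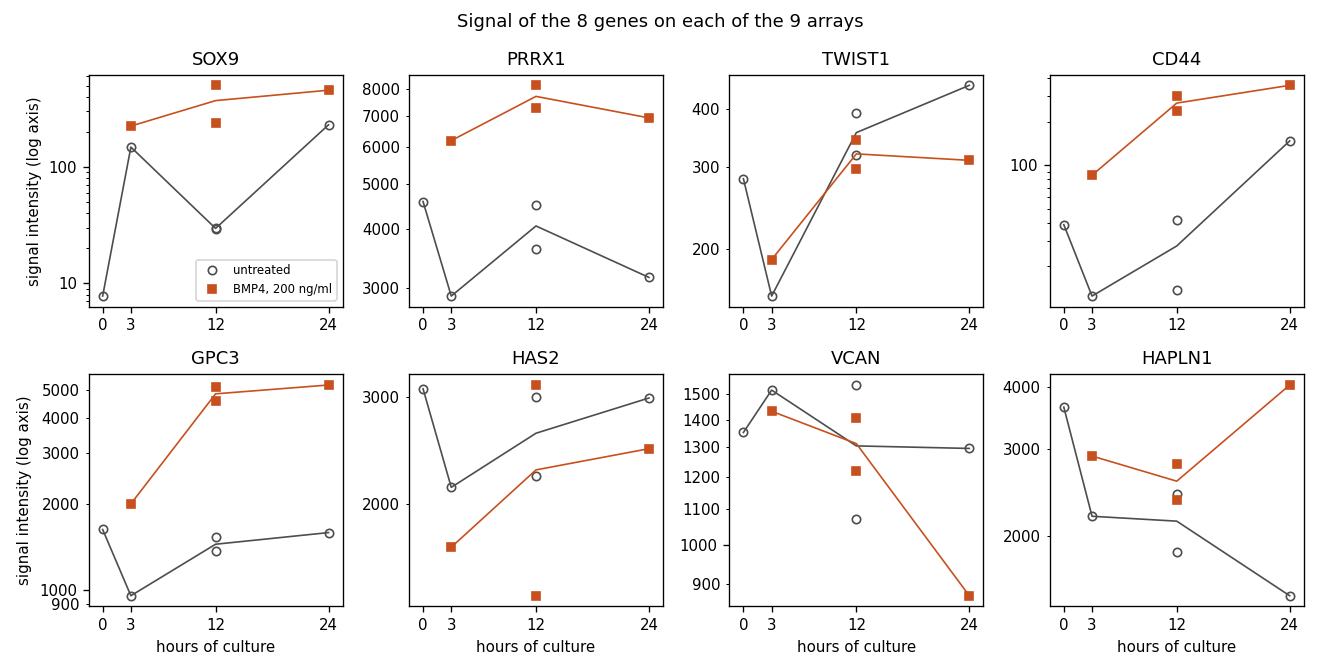
Signal intensity (log axis) against hours of culture for the 8 genes, 1 panel a gene, with open circles for untreated and filled squares for BMP4-treated arrays and lines through the mean of each group. PRRX1 and GPC3 keep the arms apart on all arrays, SOX9 dips at 12 h in untreated explants alone, and the HAPLN1 arms part between 12 h and 24 h.

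SOX9 had the widest range of the 8 genes as a ratio, with a highest signal of 501.73 in BMP4 12 h B that was 64.6 times the lowest, 7.77 at 0 h, which lay far under the filter level. In untreated explants its signal was 7.77 at 0 h, 147.93 at 3 h, 29.68 (A) and 29.56 (B) at 12 h, and 229.94 at 24 h. With BMP4 it was 224.18 at 3 h, 240.08 (A) and 501.73 (B) at 12 h, and 455.84 at 24 h. The untreated signal thus stood high at 3 h, low in both 12 h arrays and high again at 24 h. With BMP4 no such dip was seen. The untreated 3 h and 24 h signals are 1 array each. Neither the untreated step from 3 h to 12 h nor that from 12 h to 24 h passed limma's test. Untreated 24 h lay above BMP4 3 h, so the arms overlap over the whole course while they are apart within each time. In ascending order the groups ran untreated 0 h, 12 h and 3 h, BMP4 3 h, untreated 24 h, BMP4 12 h (mean 370.9 ± 185.01, SD, n = 2) and BMP4 24 h. From BMP4 3 h upward neighbours in that order differ by less than the spread of the BMP4 12 h pair.

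The SOX9 difference was 0.52 ± 0.51 at 3 h, 2.71 ± 0.36 at 12 h and 0.91 ± 0.51 at 24 h. The 12 h arrays carry most of it: without them the difference over 3 h and 24 h was 0.71. With 1 of the 12 h arrays left out at a time it was 1.32 to 1.71, and the adjusted p of 0.0969 to 0.159 was no longer under 0.05. Signals at 0 h and in untreated explants at 12 h lay under the filter level, so the size at 12 h depends on the amount added before log2, at 3.51 with 1 added and 1.80 with 100.

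PRRX1 signals in untreated explants were 4589.36 at 0 h, 2877.79 at 3 h, 3630.11 and 4504.89 at 12 h, and 3155.24 at 24 h. With BMP4 they were 6199.63 at 3 h, 7278.88 and 8143.04 at 12 h, and 6934.33 at 24 h. Every BMP4 array was above every untreated one, 0 h included. PRRX1 and GPC3, 2 of the 8 genes, had all 4 BMP4 arrays above all 4 untreated cultured arrays, as did 2.02% of named genes, and 0 had them all below, as did 2.1%. The PRRX1 difference was 1.10 ± 0.22, 0.92 ± 0.15 and 1.13 ± 0.22 at 3, 12 and 24 h in this probe set. In the other probe sets it was lower at each later time, at 1.33 ± 0.32, 1.001 ± 0.23 and 0.45 ± 0.32, and at 1.42 ± 0.28, 1.21 ± 0.20 and 0.84 ± 0.28. Its 3 probe sets differed by 0.95 to 1.17 over all times. The probe set with the lowest of these, 0.95, overlapped between the arms, with 2270.05 in BMP4 24 h against 2284.75 in untreated 12 h B.

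TWIST1 was low at 3 h in both arms and the arms crossed afterwards. Its signals were 283.37 at 0 h, then 158.6, 393.04 and 319.04, and 449.84 in untreated explants, and 190.01, 344.01 and 296.92, and 310.4 with BMP4. At 12 h the arms overlapped. The difference was 0.22 ± 0.37 at 3 h, −0.14 ± 0.26 at 12 h and −0.50 ± 0.37 at 24 h.

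CD44 is represented by 4 probe sets, which did not show the same size of difference. The brightest gave 38.83 at 0 h, 12.44 at 3 h, 13.77 and 41.5 at 12 h and 147.4 at 24 h in untreated explants. With BMP4 it gave 85.31 at 3 h, 238.24 and 300.56 at 12 h, and 357.52 at 24 h. The arms were apart at each time and overlapped only between untreated 24 h and BMP4 3 h. Only 5 of the 9 arrays, all 4 BMP4 arrays and untreated 24 h, exceeded the filter level. Its difference was 1.49 ± 0.51 at 3 h, 2.46 ± 0.36 at 12 h and 1.14 ± 0.51 at 24 h, and over all times 2.7 with 1 added before log2 and 1.17 with 100.

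The CD44 probe set on the left in the plot of all 4 had a lower mean signal, 72.16 against 137.29 for the brightest. It was brighter than that probe set at 0 h, untreated 3 h and untreated 12 h A. It also exceeded the filter level on more arrays, 7 against 5. It gave 70.78, 70.86, 35.61 and 30.56, and 62.74 in untreated explants at 0, 3, 12 and 24 h, and 72.76, 98.61 and 119.24, and 88.31 with BMP4 at 3, 12 and 24 h. All its BMP4 arrays lay above all its untreated arrays, though by 72.76 against 70.86 at the closest point. Its difference over all times was 0.68 ± 0.27, and at 3 h it was 0.03 ± 0.48.

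The remaining CD44 probe sets had signals of 5.72 to 57.31 and 5.57 to 54.78, exceeded the filter level on 2 of 9 arrays each, and overlapped between the arms. Their differences over all times were 0.36 ± 0.31 and 0.28 ± 0.32. At 3 h they were −0.30 ± 0.62 and 0.23 ± 0.69, the first with 28.9 with BMP4 against 42.23 without. With the mean of the 4 probe sets in place of the brightest, the CD44 difference was 0.80. Whether these probe sets read different CD44 transcripts was not tested.

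**Figure D2:**
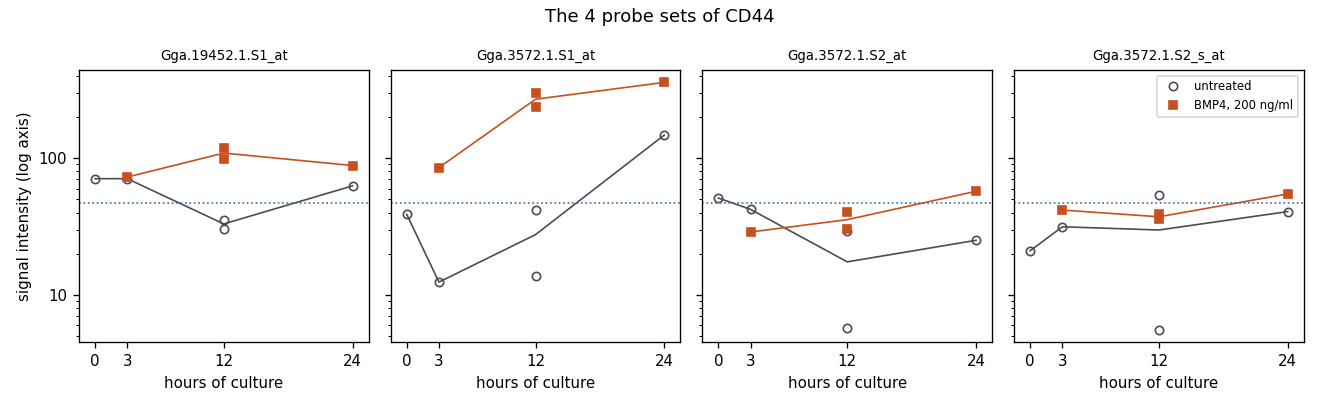
Signal intensity (log axis) against hours of culture for the 4 probe sets of CD44, with open circles for untreated arrays, filled squares for BMP4 arrays, lines through group means and a dotted line at the mean filter level of the 9 arrays. The brightest probe set spans 12.44 to 357.52, while the 2 on the right stay near or under the dotted line.

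GPC3 signals were 1630.69 at 0 h, 958.57 at 3 h, 1368.26 and 1529.62 at 12 h, and 1590.57 at 24 h in untreated explants. With BMP4 they were 2003.31 at 3 h, 4583.74 and 5098.01 at 12 h, and 5196.37 at 24 h. All untreated cultured arrays lay below the 0 h signal, and all BMP4 arrays lay above it. At 12 h the means were 4841 ± 364 with BMP4 and 1449 ± 114 without (SD, n = 2 each), and the difference was 1.72 ± 0.17. It was 1.04 ± 0.24 at 3 h and 1.69 ± 0.24 at 24 h.

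HAS2 was bright on all arrays and did not follow the arms. Its signals were 3094.74 at 0 h, 2131.3 at 3 h, 3004.68 and 2226.4 at 12 h, and 2988.46 at 24 h without BMP4. With BMP4 they were 1699.42, 3139.22 and 1414.33, and 2467.03. The spread within the 12 h duplicates, with A above B in both arms, was wider than the distance between the arms. The difference was −0.32 ± 0.44, −0.29 ± 0.31 and −0.27 ± 0.44 at 3, 12 and 24 h.

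VCAN signals were 1352.64, 1516.29, 1537.23 and 1071.8, and 1295.63 without BMP4 at 0, 3, 12 and 24 h. With BMP4 they were 1432.17, 1217.65 and 1407.43, and 871.06 at 3, 12 and 24 h. The BMP4 24 h array was the lowest of the 9 in both VCAN probe sets, at 871.06 and 498.3, and the arms overlapped at 12 h. The difference was −0.08 ± 0.31, 0.03 ± 0.22 and −0.56 ± 0.31 at the 3 times.

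HAPLN1 signals were 3640.06, 2188.18, 1851.16 and 2426.64, and 1510.65 without BMP4 at 0, 3, 12 and 24 h. With BMP4 they were 2897.86 at 3 h, 2357.62 and 2796.5 at 12 h, and 4035.69 at 24 h. The 24 h arrays were the lowest and the highest of the 9, and at 12 h the arms overlapped. The difference was 0.40 ± 0.26, 0.27 ± 0.19 and 1.40 ± 0.26. The deposited files name no genome build. In the chicken gene order of the RefSeq table (assembly GRCg7b), VCAN and HAPLN1 have 1 protein-coding locus between them. At 24 h their differences have opposite signs, but each rests on 1 array an arm, and that of VCAN (−0.56 ± 0.31) did not pass limma's test. GPC3 likewise lies beside another glypican gene, GPC4, whose difference over all times was 0.06 ± 0.24 (adjusted p = 0.971) against 1.54 for GPC3.

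**Figure D3:**
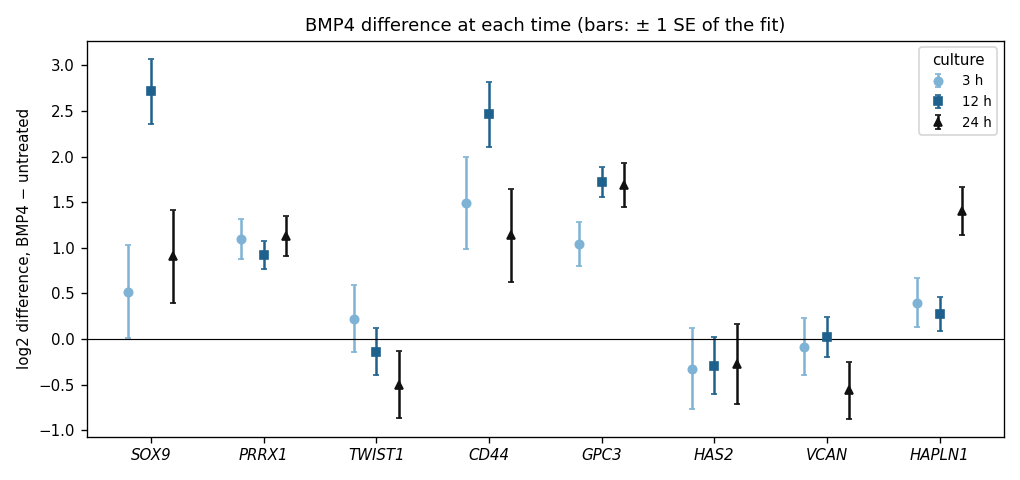
Log2 difference between BMP4-treated and untreated explants at 3, 12 and 24 h for each gene, with bars of 1 standard error from the fit. The brightest PRRX1 probe set, plotted here, lies between 0.92 and 1.13 at the 3 times while its other probe sets are lower at 24 h than at 3 h, SOX9 and CD44 are highest at 12 h, and HAPLN1 is highest at 24 h (1.40).

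The change of the BMP4 difference between 3 h and 24 h is given as a description too, since it is built from differences known when the genes were chosen. It was highest for HAPLN1, larger by 1.0004 ± 0.3736 at 24 h, followed by GPC3 (0.65 ± 0.34). It was −0.72 ± 0.52 for TWIST1 and 0.39 ± 0.72 for SOX9. For PRRX1 it was 0.03 ± 0.31 in the brightest probe set and −0.88 ± 0.45 and −0.58 ± 0.40 in the others. In limma 0 of the 8 genes had an adjusted p under 0.05 for this change, against 0.128% of named genes, and HAPLN1 alone had an unadjusted p under 0.05. Each of these values rests on 4 lone arrays whose spread is taken from the 12 h pairs.

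With time in culture, averaged over both arms, GPC3 rose between 3 h and 12 h, and CD44, GPC3 and TWIST1 were higher at 24 h than at 3 h. Between 3, 12 and 24 h both arms enter with equal weight, so that a BMP4 difference common to the 3 times cancels. One that changes with time does not cancel, and the mean can then hide unlike steps in the arms. P-values are limma's, adjusted over all 28329 probe sets. Whether courses over time also guided the choice of genes is not recorded, so these p-values are no independent evidence for the genes. The step from 0 h has no treated array at its start and averages both arms at 3 h, so part of the 3 h BMP4 difference enters it. From 0 h to 3 h, SOX9 rose by 2.56 ± 0.44 (adjusted p = 0.03), from 7.77 to 147.93 without and 224.18 with BMP4. In untreated explants alone the step was 2.31 ± 0.51 (adjusted p = 0.127), which did not pass. With both arms SOX9 was the only gene of the 8 past the threshold, which 1.09% of named genes passed upward and 0.197% downward (1.29% in all). The other 7 differed by −0.69 ± 0.38 (HAS2) to 0.12 ± 0.27 (VCAN) and did not pass. The SOX9 call rests on lone arrays and on a 0 h signal far under the filter level, and with 100 added before log2 the difference was 1.40 (adjusted p = 0.102).

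From 3 h to 12 h GPC3 rose by 0.92 ± 0.17 (adjusted p = 0.00901), the only gene of the 8 to pass, against 2.87% of named genes upward, 1.77% downward and 4.64% in all. In the separate arms the step was 0.58 ± 0.21 without and 1.26 ± 0.21 with BMP4, so the larger part of the mean came from the BMP4 arm. The untreated step went from 958.57 to 1368.26 and 1529.62, which lay under the 0 h signal of 1630.69. TWIST1 (0.85 ± 0.23, adjusted p = 0.0707), CD44 (0.90 ± 0.35, adjusted p = 0.224), PRRX1 (0.40 ± 0.13, adjusted p = 0.127) and SOX9 (−0.52 ± 0.45, adjusted p = 0.645) did not pass. For SOX9 this mean joins steps of opposite sign, −1.61 ± 0.44 without and 0.58 ± 0.44 with BMP4. From 12 h to 24 h none of the 8 passed (0 at an adjusted p under 0.05, against 0.573% of named genes upward, 0.291% downward and 0.864% in all). Among the brightest probe sets, SOX9 at 1.26 ± 0.45 (adjusted p = 0.283) and CD44 at 1.04 ± 0.35 (adjusted p = 0.265) were the only ones at an unadjusted p under 0.05 in limma. The other PRRX1 probe sets also had an unadjusted p under 0.05 in limma, at −0.70 ± 0.21 (adjusted p = 0.192) and −0.52 ± 0.18 (adjusted p = 0.265). In the separate arms the SOX9 step from 12 h to 24 h was 2.17 ± 0.44 without and 0.36 ± 0.44 with BMP4. For CD44 it was 1.71 ± 0.44 without and 0.38 ± 0.44 with BMP4.

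From 3 h to 24 h CD44 rose by 1.95 ± 0.41 (adjusted p = 0.0124), GPC3 by 1.04 ± 0.19 (adjusted p = 0.00647) and TWIST1 by 0.9962 ± 0.2713 (adjusted p = 0.0444). That is 3 of the 8 genes, against 5.65% of named genes upward, 4.32% downward and 9.97% in all. Each of the 3 was higher at 24 h than at 3 h in both arms. TWIST1 passed by little, with an adjusted p of 0.0559 to 0.0651 in fits that lacked a single 12 h array. CD44 passed in its brightest probe set, and the mean of its 4 probe sets gave 0.58 (adjusted p = 0.334). HAS2 (0.51 ± 0.28), PRRX1 (0.15 ± 0.15), HAPLN1 (−0.03 ± 0.25), VCAN (−0.46 ± 0.23) and SOX9 (0.75 ± 0.51) did not pass. For HAPLN1 the mean of the arms hides opposite courses, 2188.18 to 1510.65 without and 2897.86 to 4035.69 with BMP4.

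**Figure D4:**
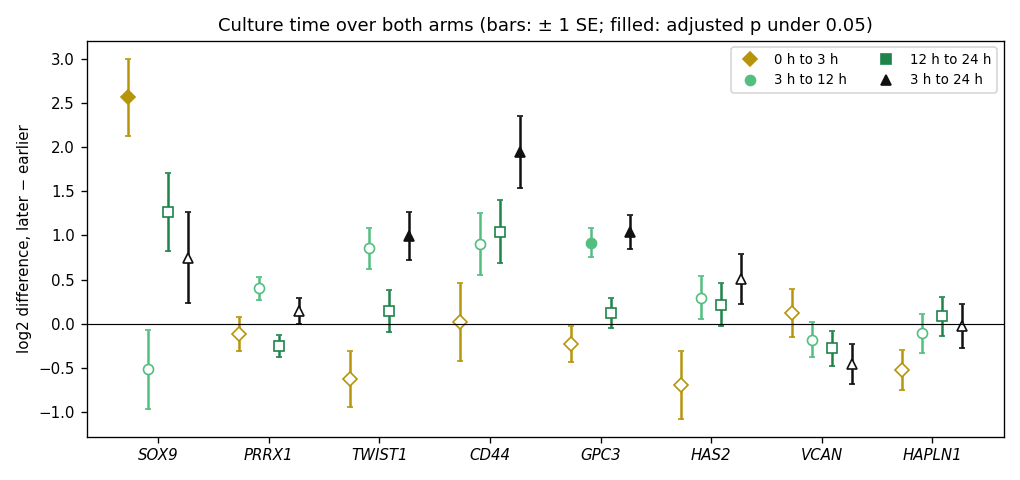
Log2 difference between later and earlier times, averaged over both arms, with bars of 1 standard error and filled symbols where the adjusted p is under 0.05. SOX9 is filled for 0 h to 3 h, GPC3 for 3 h to 12 h, and CD44, GPC3 and TWIST1 for 3 h to 24 h.

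The 8 genes did not vary as 1 block over the 9 arrays. The correlation of log2 signal was 0.92 between CD44 and GPC3, 0.91 between PRRX1 and GPC3, 0.80 between SOX9 and CD44 and 0.76 between PRRX1 and CD44. It was −0.55 between CD44 and VCAN, −0.47 between VCAN and HAPLN1 and −0.47 between SOX9 and HAS2. These values describe 9 arrays that share arm and time. Over the same arrays the named gene most like PRRX1 was GATA5, a cardiac zinc finger factor (r = 0.983). RNF220, RUNX1T1 and GPRIN2 came next, and then the homeobox gene and BMP target MSX2 (r = 0.935). The gene most like CD44 was BAMBI, a decoy receptor that dampens BMP signals (r = 0.968), followed by PRMT1, ANAPC13, POF1B and LOC421419. Those most like HAS2 and SOX9 were PLK1, a kinase of mitosis (r = 0.959), and FYTTD1L (r = 0.929).

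Few other genes of the pathways were called with BMP4 over all times: MSX2, SMAD6 and FOXC2. Genes of the 8 that stand in these lists were chosen with these differences known, so their calls are a description only. The lists were also chosen with earlier results of these data known, so calls of their other genes are no independent evidence. Percentages of named genes called are those given above. Of 17 tested genes of hyaluronan synthesis, breakdown and binding, CD44 alone was higher and 0 were lower, with a list median of 0.07. Without CD44 and HAS2, 15 genes remained, with 0 called by limma and a median of 0.07. The hyaluronidase HYAL2 was at −0.53, the precursor enzyme UGDH at 0.29 and the receptor LYVE1 at 0.07, none past the test. Of 3 tested hyalectans and link proteins (VCAN, NCAN and HAPLN1) 0 were called by limma. Of 7 glypicans and syndecans GPC3 alone was higher, while GPC1 was at −0.09, GPC2 at −0.73 and SDC2 at 0.01. The 6 genes other than GPC3 had 0 called by limma and a median of −0.19.

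Of 15 tested partners of SOX9 and cartilage matrix genes, SOX9 alone was higher and 0 were lower, with a median of 0.04. The 13 genes other than SOX9 and HAPLN1 had 0 called by limma and a median of 0.01. The cartilage collagens COL2A1 (−0.28), COL9A1 (−0.06), COL9A3 (0.15) and COL11A1 (−0.20) did not pass, nor did SOX5 (0.04), a cofactor of SOX9 in cartilage, or SOX8 (−0.55). The cartilage proteoglycan ACAN exceeded the filter level on 1 of 9 arrays and was not tested. Of 32 genes of cushion formation and epithelial-mesenchymal transition, MSX2 and the BMP inhibitor SMAD6 were higher and 0 were lower, with a median of 0.13. Their differences were 1.87 ± 0.10 (adjusted p = 6.6e-07) and 0.54 ± 0.07 (adjusted p = 0.00182). At 24 h alone HEY1, a target of Notch, was lower (−1.37 ± 0.17), from 1 array in each arm with the spread taken from the 12 h pairs. Over all times SNAI1 (0.42), SNAI2 (0.27), ZEB2 (0.42) and TGFB2 (0.05), drivers of that transition, did not pass. SNAI1 had all 4 BMP4 arrays above all 4 untreated cultured arrays, as did 2.02% of named genes. The largest differences of this list that did not pass were MSX1 (0.62), HEY1 (−0.61), ADAMTS9 (0.57), TGFBR2 (0.52) and BMP2 (0.51). Of 15 mesenchyme transcription factors PRRX1 was higher and FOXC2 lower (−1.17 ± 0.23, adjusted p = 0.0242), while PRRX2, the paralogue of PRRX1, was at −0.49. Of 24 genes of fibrillar and mesenchymal matrix 0 were called by limma, with a median of 0.05.

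**Figure D5:**
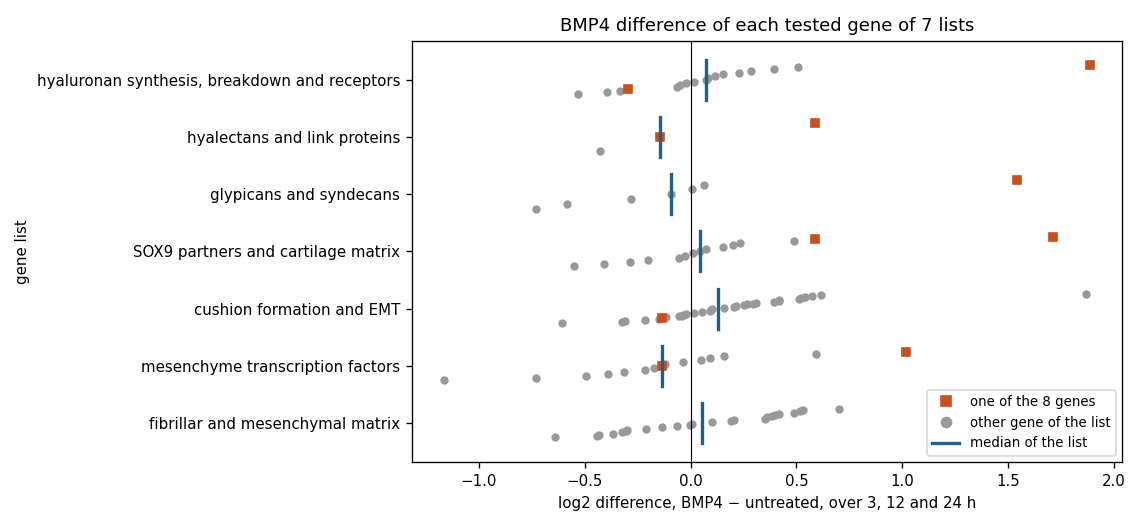
Log2 difference between BMP4-treated and untreated explants over 3, 12 and 24 h for each tested gene of 7 lists, with orange squares for the 8 genes described here, grey points for other genes and a blue line at each list's median. The list medians lie between −0.15 and 0.13, and SOX9, PRRX1, CD44 and GPC3 stand to the right of the other genes of their lists. Those genes were chosen with these differences known, so their place in the lists is a description only.

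Culture time gave more calls in 6 of the 7 lists than BMP4 did, as it did over all named genes (9.97% against 1.86%), and 0 in the hyalectan list in limma. From 3 h to 24 h over both arms, the neural crest and cartilage regulators SOX8 (−1.36 ± 0.27, adjusted p = 0.00818), SOX10 (−2.56 ± 0.33, adjusted p = 0.000422) and RUNX2 (−1.82 ± 0.41, adjusted p = 0.0182) fell, while chondromodulin (LECT1 in the annotation), a cartilage and valve glycoprotein, rose by 2.76 ± 0.32 (adjusted p = 0.000221). Those are 1 higher and 3 lower of 15. RUNX2 exceeded the filter level on 3 of 9 arrays (15.29 to 192.85), so the size of its fall depends on the amount added before log2. Of the 32 cushion and transition genes 3 rose and 4 fell, among them BMP2 (1.15 ± 0.27) and MMP2 (0.93 ± 0.14) upward and SNAI2 (−1.25 ± 0.19) and HEY1 (−1.08 ± 0.21) downward. Of the 24 matrix genes 5 rose and 1 fell, with the small proteoglycans DCN (2.79 ± 0.14) and FMOD (1.96 ± 0.38) among those that rose. FMOD exceeded the filter level on 6 of 9 arrays (6.77 to 220.41). Of the 17 hyaluronan genes CD44 and HABP4 rose and 0 fell.

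Markers of other cell types that express some of these genes were set beside the arms. Sums are of signal on the linear scale, so the brightest markers of a list weigh most in them. Of 10 tested cardiomyocyte markers 6 were higher with BMP4 over all times and 0 lower, and their summed signal was 25538 with against 20029 without BMP4 at 3 h, 56966 to 59685 against 25132 to 36370 at 12 h, and 133689 against 69371 at 24 h. Of 8 tested neural crest markers 0 were called with BMP4 over all times by limma, and at 24 h TFAP2B was lower (−2.95 ± 0.29, adjusted p = 0.00167). Their summed signal was 13239 against 14637 at 3 h, 9884 to 13879 against 8449.1 to 9441 at 12 h, and 5597 against 10648 at 24 h, and SOX10 was above the filter level on all 9 arrays.

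Of 7 tested chondrocyte markers 0 were called by limma over all times or at any 1 time, and the sum was 2715 against 2552 at 3 h, 2834 to 4152 against 4108 to 4624 at 12 h, and 5253 against 3793 at 24 h. Of 12 tested endothelial and endocardial markers 0 were called by limma in the same comparisons, with sums of 6649 against 7193, 9942 to 10847 against 9252 to 9611, and 11376 against 12234. Of 12 epithelial and endodermal markers HHEX was higher over all times, and at 24 h KRT7 was higher (0.96 ± 0.16, adjusted p = 0.0288) and PAX9 lower (−1.91 ± 0.32, adjusted p = 0.029), with sums of 53719 against 48952, 62583 to 63807 against 51985 to 54575, and 88641 against 63875. The 11 tested markers of the labelled tissue summed to 26116 with against 17054 without BMP4 at 3 h, 19753 to 22968 against 15883 to 17751 at 12 h, and 19185 against 14741 at 24 h. ISL1 and HAND2 were called higher and FOXC2 lower over all times. The median log2 difference of the 11 was 0.51 at 3 h, −0.17 at 12 h, 0.21 at 24 h and −0.02 over all times. The 5 tested blood markers summed to 1043.5 against 731.7, 1107.8 to 1235.7 against 685.7 to 730.3, and 1297 against 954.3, with 0 called by limma. Of 9 neural markers NEFM was higher over all times, and PAX6 was lower at 12 h (−2.06 ± 0.31) and 24 h (−5.41 ± 0.44). PAX6 signals ran from 6.93, far under the filter level, to 1450.7. The sums were 6211 against 5466, 14918 to 15613 against 11334 to 13155, and 20508 against 16699, with NEFM reaching 17910.53. The median log2 difference of the 9 was 0.095 at 3 h, −0.55 at 12 h, −0.30 at 24 h and −0.27 over all times. Of 6 smooth muscle markers 0 were called by limma, with sums of 2874 against 3195, 2711 to 4942 against 2128 to 3518, and 4599 against 3346. From 3 h to 24 h over both arms, 8 of 10 cardiomyocyte, 4 of 12 endothelial and 4 of 12 epithelial markers were called higher and 0 lower. Lower were 6 of 8 neural crest markers and 3 of 11 of the labelled tissue, with 0 higher. The remaining lists had at most 1 in each direction, against 5.65% of named genes higher and 4.32% lower. The part of these cell types in the signals of the 8 genes was not tested.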

How the data were processed

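The deposited values are signal intensity of 38535 probe sets on a linear scale (1 to 43611.53), made by the authors with MAS5 per the submitters' processing notes. The version and scaling target are not given in the sources used here. Array medians are nearly equal, so values were used as deposited.

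The 96 control probe sets were left out. A probe set was tested if it exceeded the 40th percentile of its array on at least 2 arrays (28329 probe sets). Log2 of signal plus 27.79, the 25th percentile of the table, was fitted with limma 3.58.1 in R 4.3.3 with a variance trend over signal and Benjamini-Hochberg adjustment. BMP4 and culture time over all times came from an additive fit of the 8 cultured arrays. Single times, the 0 h step and the change of the BMP4 difference came from 7 group means of 9 arrays, whose spread comes from the 12 h pairs alone and is taken to hold for the lone arrays too. P-values are two-sided and measure only the spread between these samples, and the number of arrays limits the precision. In the additive fit that spread also holds any change of the BMP4 difference between times. Genes were named from the platform annotation updated through RefSeq. CCN1, CNMD and CTGF were read as CYR61, LECT1 and CCN2.

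Named were the 8 genes, all CD44 probe sets, genes with the most similar signal, called members of 7 pathway lists, and markers of 9 tissues. Other list genes were named after their values were seen. The 8 genes and the lists were chosen with earlier results of these data known. Alternatives tried were no variance trend, other offsets, no filter, quantile normalization, leaving out 12 h arrays or a time, a block for A and B, group means for time, the mean of probe sets, and an adjusted p under 0.10.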

Additional observations from a re-analysis of the deposited data

How the results depend on the processing

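No value of the 8 genes that was called changed its sign under any alternative run. The number of the 8 genes called depended on letting the variance follow the signal: with 1 variance prior for all probe sets, 0 were called in each comparison. Over all times BMP4 gave 4 genes, 2 with probe sets averaged per gene, 0 without the 12 h arrays and 3 without any 1 of them. SOX9 also lost its call there with no filter (adjusted p = 0.0516), with 1 added before log2 (0.0617) and with the replicate block (0.0611). At 12 h it gave 4, but 2 with the mean of probe sets, with no filter or with 1 added before log2, and 2 to 4 without 1 array, the lowest without untreated array A. At 24 h it gave 2, 1 under each of those settings and 3 without 1 array. From 3 h to 12 h 1 gene was called, and 2 at an adjusted p under 0.10. From 3 h to 24 h it was 3, and 2 without any 1 of the 12 h arrays, TWIST1 being lost. The 0 h to 3 h call of SOX9 was lost (0 genes) with the mean of probe sets, no filter or 100 added.

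Among named genes, calls over all times numbered 217 for BMP4, and 3 without the trend, 56 with the mean of probe sets, 6 without the 12 h, 95 without the 24 h and 386 without the 3 h arrays, and 95 to 135 without 1 array. Across alternatives they ranged from 0 to 670 at 12 h (121), 0 to 66 at 3 h (3), 0 to 827 at 24 h (142), 74 to 892 from 3 h to 12 h (542), 0 to 192 from 12 h to 24 h (101), 255 to 1740 from 3 h to 24 h (1166), 0 to 1020 from 0 h to 3 h (151) and 0 to 367 for the change of the BMP4 difference (15).

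The labels do not say what the A arrays, or the B arrays, of the 2 arms share beyond a letter. The A minus B differences correlated at 0.126 between the arms over 28329 probe sets, which does not settle it. The beta-actin 3′ over 5′ ratio was higher in A (5.44 untreated, 5.5 with BMP4) than in B (3.8 and 4.26). Whether a factor common to the arms sets A apart from B was not tested. With A and B as a replicate block, which leaves 1 residual degree of freedom in the fit of group means, 2 of the 8 genes were called for BMP4 at 3 h, 2 from 0 h to 3 h and 1 for the change of the BMP4 difference. The cause of these changes was not tested. Depth has no counterpart here, but SOX9 and CD44 lie under the filter level on several arrays, so the size of their differences depends on the amount added before log2.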

Other observations

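None of the tested genes that lie next to the 8 genes in the RefSeq gene order passed limma's test for BMP4 over all times. KCNJ2 and SLC39A11, on either side of SOX9, were at −0.39 ± 0.21 and 0.07 ± 0.18 on the log2 scale over all times. APIP and SLC1A2 beside CD44 were at −0.07 ± 0.22 and 0.14 ± 0.31, and PHF6, the other neighbour of GPC3, at 0.10 ± 0.19. The highest values among tested neighbours were those of SNTB1 beside HAS2 (1.11 ± 0.32, adjusted p = 0.154) and of EDIL3, an extracellular adhesion protein, beside HAPLN1 (1.01 ± 0.25, adjusted p = 0.0895), neither past the threshold. No test compared a neighbour with its gene.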
